A study of Rattus norvegicus with 6 samples.

Results

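The fatty acid desaturases and elongases described here are 10 enzyme genes, Fads1, Fads2, Scd, Scd2, Elovl1, Elovl2, Elovl4, Elovl5, Elovl6 and Elovl7, taken by symbol from the 35291 genes in the expression table. All 10 were found, and 7 of them had a mean of at least 0.5 FPKM (fragments per kilobase of transcript, scaled to the mapped fragments of the sample, a level per length) over the 6 rats and entered the tests. RNA-Seq was performed on the testes of adult male Sprague Dawley rats, 3 diabetic (DM) and 3 non-diabetic (ND). RNA was extracted 8 weeks after the injection of streptozotocin (STZ), a toxin of the insulin-producing beta cells. Diabetes was induced with STZ in rats that had first been fed a high-fat diet, and rats with a persistently high blood glucose were kept. ND rats were injected with the citrate buffer alone. The methods do not say whether the ND rats also ate the high-fat diet, so that effects of the diet, of STZ and of diabetes cannot be told apart. The labels give no other genotype or treatment and do not tie the samples to single animals. Each sample is called a rat here, and p-values measure the spread between these 6 samples, which may be technical.

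Desaturases put double bonds into fatty acids, and elongases add carbon units to them. Fads2 and Fads1 act in turn, with elongation by Elovl5 and Elovl2 between and after them, to turn the essential fatty acids of the diet into arachidonate, docosapentaenoate and docosahexaenoate, while Scd and Scd2 make monounsaturated fatty acids from saturated ones. Testis is known for its high content of long polyunsaturated fatty acids in germ cell and Sertoli cell membranes, and Elovl2 and Fads2 are both needed for spermatogenesis in mice.

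The rat promoters of Fads1, Fads2 and Scd2, whose levels were lower in the DM testes at an unadjusted p, are shown first. That of Elovl2, the highest member, which was not lower, is also shown. Each window holds 250 bases before the annotated start and 50 bases from it on, 5′ to 3′ on the strand of the gene, from RefSeq on GRCr8 (a build not stated to be that of the expression table). Capitals mark CCAAT boxes (CCAAT or ATTGG) and GC boxes (GGGCGG or CCGCCC). Fads1 lies at chr1:216252442-216252741 on the plus strand, Fads2 at chr1:216171984-216172283 on the minus strand, Scd2 at chr1:253118127-253118426 on the plus strand and Elovl2 at chr17:23750100-23750399 on the plus strand.
Fads1: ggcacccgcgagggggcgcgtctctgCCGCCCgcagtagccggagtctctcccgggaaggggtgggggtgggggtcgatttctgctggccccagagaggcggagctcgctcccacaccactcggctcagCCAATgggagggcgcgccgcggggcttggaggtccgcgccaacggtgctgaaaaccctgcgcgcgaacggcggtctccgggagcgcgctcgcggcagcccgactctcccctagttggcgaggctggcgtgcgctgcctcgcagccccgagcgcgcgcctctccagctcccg
Fads2: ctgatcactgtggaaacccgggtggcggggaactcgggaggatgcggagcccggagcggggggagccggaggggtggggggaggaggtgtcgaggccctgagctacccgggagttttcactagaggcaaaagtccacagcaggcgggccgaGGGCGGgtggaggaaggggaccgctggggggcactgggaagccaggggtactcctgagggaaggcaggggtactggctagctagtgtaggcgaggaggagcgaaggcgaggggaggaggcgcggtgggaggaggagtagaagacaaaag
Scd2: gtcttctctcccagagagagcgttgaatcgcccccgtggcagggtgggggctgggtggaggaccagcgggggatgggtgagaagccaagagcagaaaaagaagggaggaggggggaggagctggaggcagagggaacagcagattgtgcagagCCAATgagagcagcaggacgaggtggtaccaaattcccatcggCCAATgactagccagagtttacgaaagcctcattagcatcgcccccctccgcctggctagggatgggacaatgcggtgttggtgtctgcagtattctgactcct
Elovl2: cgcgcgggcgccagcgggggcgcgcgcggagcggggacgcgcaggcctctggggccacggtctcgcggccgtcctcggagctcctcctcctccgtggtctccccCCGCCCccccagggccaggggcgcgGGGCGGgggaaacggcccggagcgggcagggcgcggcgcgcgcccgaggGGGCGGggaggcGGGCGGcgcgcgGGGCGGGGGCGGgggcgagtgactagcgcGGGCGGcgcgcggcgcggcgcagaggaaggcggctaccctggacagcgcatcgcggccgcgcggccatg

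The Fads1 window had 1 CCAAT box, 121 bases before the start, and 1 GC box, 224 bases before it. The Fads2 window had 1 GC box, 99 bases before the start, and no CCAAT box. The Scd2 window had 2 CCAAT boxes, 97 and 54 bases before the start, and no GC box. The Elovl2 window had 7 GC boxes and no CCAAT box, and 84.7% of its bases were G or C. RefSeq gives Elovl2 a second start, whose window had 1 GC box and 78.3% G or C. The window of Elovl7, which was also lower at an unadjusted p but is not printed, had neither box and 35% G or C. RefSeq windows matched 9 of the 10 members (not Elovl6), of which 4 held a CCAAT box (Fads1, Scd2, Elovl4 and Elovl5) and 4 a GC box (Fads1, Fads2, Elovl2 and Elovl4). Over all 33469 windows of the rat set, 37.5% held a CCAAT box and 33.1% a GC box. An E-box of the letters CACGTG was in 1 member's window, that of Elovl5, against 6.42% of all windows, and the letters CACCCCA, of a sterol response element core, were in no member's window, against 6.93%. Each motif was searched on both strands, and no match of one overlapped a match of another in the members' windows. These are matches of letters and not measured binding sites.

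The members differed widely in level in rat testis. Elovl2, which elongates the long polyunsaturated fatty acids, was the highest at 79.6 ± 2.38 FPKM (SD over the 6 rats), followed by Scd2 at 50.6 ± 6.10, Elovl5 at 26.5 ± 2.67, Fads2 at 22.1 ± 5.64 and Fads1 at 12.9 ± 5.94 FPKM. Elovl2 stood at the 94.5 percentile of all genes tested by level and Scd2 at the 91.2 percentile. Elovl1 (1.25 FPKM) and Elovl7 (1.04 FPKM) were far lower, at the 17.7 and 14.1 percentiles. Elovl6 (0.254 FPKM), Elovl4 (0.147 FPKM) and Scd (0.0833 FPKM) were below the level required for the test. The ranges over rats did not overlap between Elovl2 and Scd2, between Scd2 and Elovl5, or between Fads1 and Elovl1. The ranges of the other neighbours in this order did overlap, although Elovl5 was above Fads2 and Fads2 above Fads1 in 6 of 6 rats, and Elovl1 was above Elovl7 in 4 of 6. In testis the stearoyl-CoA desaturase signal was thus Scd2 and hardly Scd, but the sequences of these 2 genes are alike and reads can be split between them, so the low level of Scd is uncertain.

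**Figure D1:**
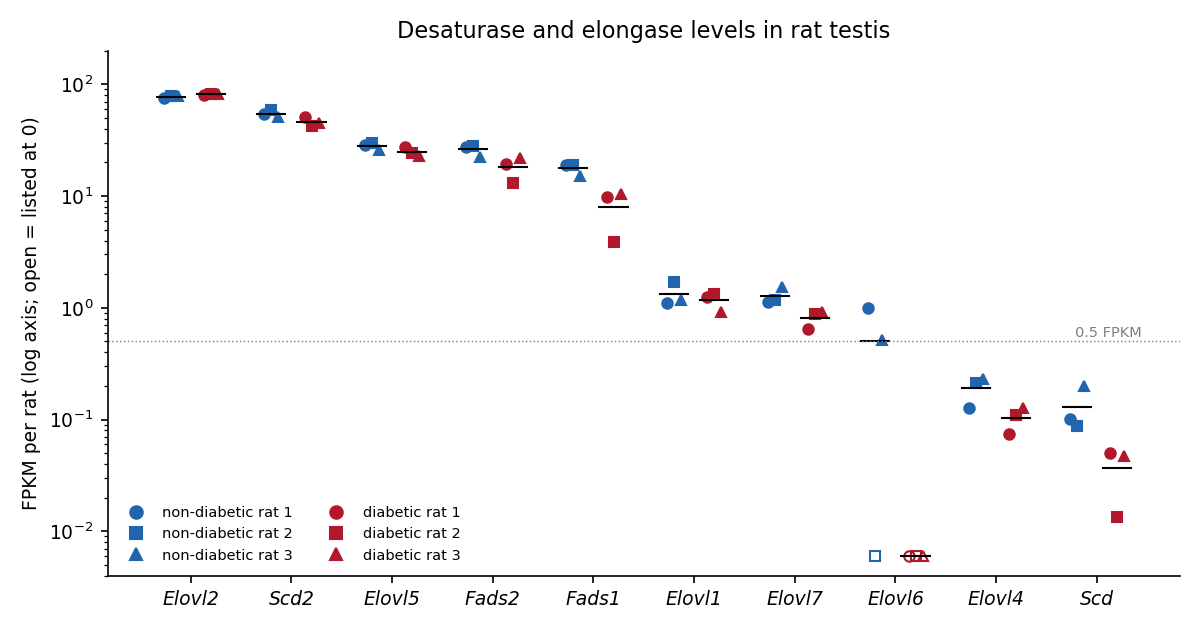
FPKM of the 10 members in each rat on a log axis, ordered by mean level, with ND rats in blue, DM rats in red and group means as short lines; open symbols at the foot are values listed at 0, and the dotted line is the 0.5 FPKM needed for the test. Of the members tested, Fads1, Fads2 and Elovl7 lie lower in every DM rat than in any ND rat. Elovl2 lies between 75.9 and 82.4 FPKM in all 6 rats.

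Fads1, Fads2, Scd2 and Elovl7 were lower in the DM testes at an unadjusted limma p below 0.05, which is 4 of the 7 members tested, against 4.99% of all 20338 genes tested being lower at that p (7.46% in either direction). None was higher, against 2.47% of all genes. The members were chosen with earlier results of these data known, so these counts describe the group and do not test it. No member had a Benjamini-Hochberg adjusted p below 0.05, which 7 genes, or 0.0344%, reached in the whole table, so none of the differences below passed the test over all genes. By the criterion of the study (a log2 fold change of 1 or more in size, with p below 0.05, taken here as unadjusted), Fads1 alone among the members was called, against 0.846% of all genes called lower and 1.24% in either direction. Without DM rat 2, the log2 fold change of Fads1 was -0.79 and this call was lost. The log2 fold change was below 0 for 6 of the 7 members, and the median of the 7 was -0.24, against -0.02 for all genes. Levels of all 3 DM rats were below those of all 3 ND rats for Fads1, Fads2 and Elovl7, which 8.42% of all genes also showed (13% in either direction).

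Fads1, which makes arachidonate and eicosapentaenoate from their precursors, had the largest difference of the members tested. Its level was 9.84, 3.90 and 10.4 FPKM in DM rats 1, 2 and 3, and 19.0, 19.1 and 15.0 FPKM in ND rats 1, 2 and 3. The groups did not overlap, and DM rat 2 was far below the other DM rats. Fads1 averaged 8.04 ± 3.59 FPKM in DM and 17.7 ± 2.32 FPKM in ND testes (SD, n = 3), which was 45.4% of the ND level. Its log2 fold change on the log2(FPKM + 0.1) scale was -1.24 (SE 0.35, 95% interval -2.07 to -0.41, limma unadjusted p = 0.00923, adjusted p = 0.492). The exact two-sided permutation test gave p = 0.1, the smallest that 3 rats against 3 allow. Without DM rat 2 the log2 fold change was -0.79 (limma unadjusted p = 0.000725, adjusted p = 0.278, within the range of 0.207 to 0.858 over all alternatives). The coefficient of variation of Fads1 was 44.7% among DM rats and 13.1% among ND rats.

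Fads2, the first desaturase of the same route, was 19.2, 13.1 and 22.0 FPKM in DM rats 1 to 3 and 27.6, 28.4 and 22.6 FPKM in ND rats 1 to 3. DM rat 2 was again the lowest, and the highest DM rat came close to the lowest ND rat. The means were 18.1 ± 4.53 and 26.2 ± 3.13 FPKM (SD, n = 3), so that DM testes had 69.1% of the ND level. The log2 fold change was -0.56 (SE 0.19, 95% interval -1.01 to -0.11, limma unadjusted p = 0.0218, adjusted p = 0.590). It was -0.34 without DM rat 2, and the unadjusted p rose to 0.0606 without ND rat 1 and to 0.0680 without ND rat 2. Summed, Fads1 and Fads2 stood at 59.6% of the ND level.

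Scd2, which makes oleate and palmitoleate, was 51.3, 42.4 and 45.4 FPKM in the DM rats and 54.1, 59.5 and 50.7 FPKM in the ND rats. The groups overlapped, since DM rat 1 was above ND rat 3. The means were 46.4 ± 4.51 and 54.8 ± 4.46 FPKM (SD, n = 3), with a log2 fold change of -0.24 (SE 0.09, 95% interval -0.46 to -0.02, limma unadjusted p = 0.0340, adjusted p = 0.648). The unadjusted p was above 0.05 when DM rat 2 (0.113), DM rat 3 (0.0822), ND rat 1 (0.0659) or ND rat 2 (0.113) was left out, with median-ratio scaling between samples (0.0537) and without the mean-variance trend (0.0750). Scd, the stearoyl-CoA desaturase of liver and fat, was 0.0507, 0.0133 and 0.0470 FPKM in the DM rats and 0.101, 0.0877 and 0.200 FPKM in the ND rats. The groups did not overlap, but all values were below the level required for the test. With no filter on low levels the log2 fold change of Scd was -0.72 (95% interval -1.41 to -0.04, limma unadjusted p = 0.0416, adjusted p = 0.737), a value that the 0.1 FPKM added before the logarithm makes smaller.

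Among the elongases, Elovl2 and Elovl5 carry out the elongations of the polyunsaturated route. Elovl2 was 80.2, 82.4 and 81.6 FPKM in the DM rats and 75.9, 78.1 and 79.1 FPKM in the ND rats. All 3 DM rats were above the ND rats by a small margin, a separation that 4.56% of all genes showed in that direction. The means were 81.4 ± 1.13 and 77.7 ± 1.61 FPKM (SD, n = 3), with a log2 fold change of 0.07 (95% interval -0.05 to 0.18, limma unadjusted p = 0.215, adjusted p = 0.843). The interval thus leaves room for a difference of either sign. Its coefficient of variation was 1.39% in DM and 2.07% in ND rats, the lowest of the members within each group among those tested. Elovl5 was 27.5, 24.2 and 22.7 FPKM in the DM rats and 28.7, 29.6 and 26.0 FPKM in the ND rats. The groups overlapped, and the log2 fold change was -0.18 (95% interval -0.40 to 0.03, limma unadjusted p = 0.0851, adjusted p = 0.736).

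Elovl1, Elovl4, Elovl6 and Elovl7 serve saturated, monounsaturated and very long fatty acids. Elovl7 was 0.643, 0.884 and 0.910 FPKM in the DM rats and 1.13, 1.17 and 1.52 FPKM in the ND rats. The groups did not overlap, and the log2 fold change was -0.59 (SE 0.24, 95% interval -1.15 to -0.03, limma unadjusted p = 0.0422, adjusted p = 0.661). The unadjusted p was above 0.05 whichever single rat was left out, from 0.0510 without DM rat 3 to 0.135 without ND rat 3. Elovl1, which elongates saturated fatty acids for ceramides, was 1.24, 1.33 and 0.923 FPKM in the DM rats and 1.10, 1.72 and 1.16 FPKM in the ND rats. These values overlapped, with a log2 fold change of -0.16 (95% interval -0.75 to 0.42, limma unadjusted p = 0.529).

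Elovl4, which makes the very long polyunsaturated fatty acids of retina and testis, was low, at 0.0737, 0.110 and 0.128 FPKM in the DM rats and 0.128, 0.211 and 0.230 FPKM in the ND rats. DM rat 3 and ND rat 1 were equal to 3 digits. With no filter the log2 fold change of Elovl4 was -0.50 (95% interval -1.17 to 0.17, limma unadjusted p = 0.123). Elovl6, which elongates palmitate to stearate, was listed at 0 in the 3 DM rats and in ND rat 2, and at 1.005 and 0.519 FPKM in ND rats 1 and 3. No fold change is given for it, since a value of 0 in a table of FPKM may stand for a transcript that could not be estimated.

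**Figure D2:**
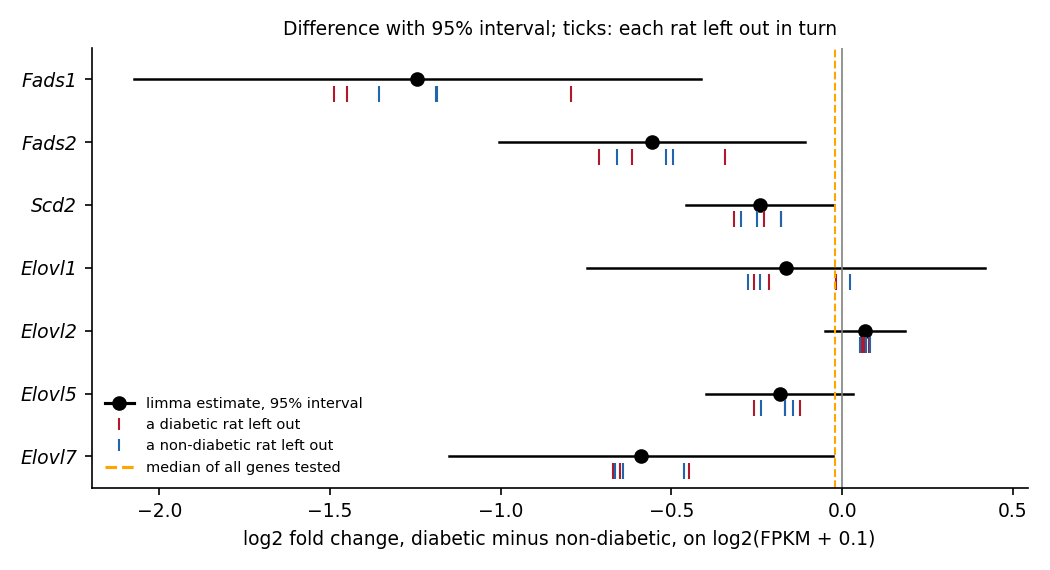
Log2 fold change (DM minus ND) of the 7 members tested, with the 95% interval from limma as a line and the values with each rat left out in turn as ticks below it (red, a DM rat; blue, an ND rat); the dashed line is the median of all genes tested. Fads1 lies farthest below 0 and moves most, from -1.49 to -0.79, with the choice of rat, while Elovl2 stays close to 0.

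Within each rat the members can also be set against each other, since FPKM is per length. The ratio of Fads1 to Fads2, whose genes lie next to each other on chromosome 1, was 0.513, 0.298 and 0.472 in the DM rats and 0.688, 0.673 and 0.665 in the ND rats. The ND rats were close to one another (0.675 ± 0.0118, SD, n = 3) and the DM rats were lower and wider apart (0.428 ± 0.114). The log2 difference was -0.70 (exact two-sided permutation p = 0.1, 0.15 adjusted over the 3 ratios tested, the smallest p being 0.1), and -0.46 without DM rat 2. The ratio of Elovl2 to Elovl5 was 2.92, 3.41 and 3.59 in the DM rats and 2.64, 2.63 and 3.04 in the ND rats. These groups overlapped, with a log2 difference of 0.25 (exact permutation p = 0.2, adjusted 0.2). The ratio of Scd to Scd2 was at most 0.00103 in the DM rats and at least 0.00147 in the ND rats, with a log2 difference of -1.69 (exact permutation p = 0.1, adjusted 0.15), or -0.48 with 0.1 FPKM added to both genes.

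**Figure D3:**
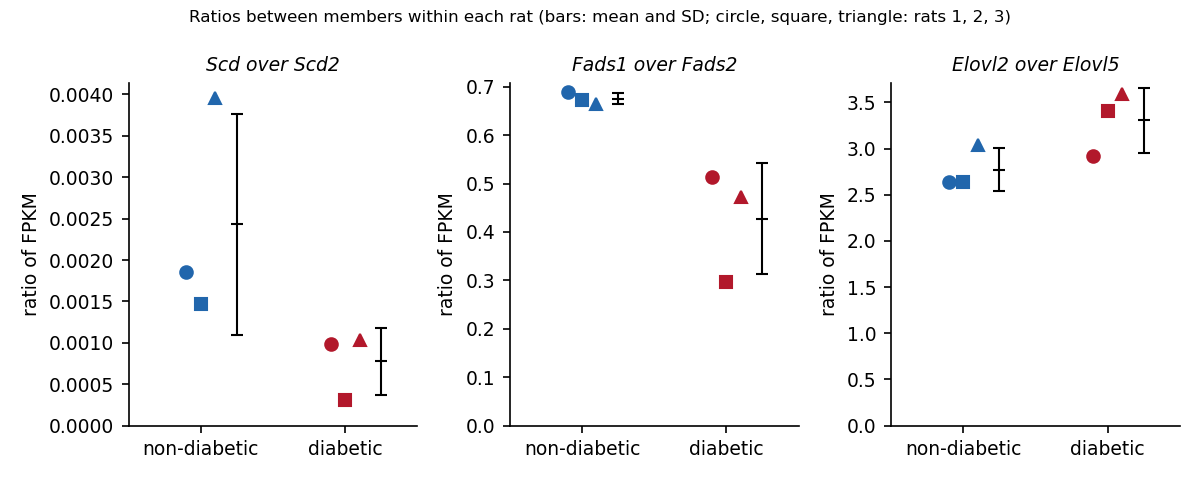
Ratio of FPKM between members within each rat, for Scd over Scd2, Fads1 over Fads2 and Elovl2 over Elovl5 (circles, squares and triangles are rats 1, 2 and 3; bars are the mean and SD of 3 rats; each axis starts at 0). The Fads1 to Fads2 ratio lies between 0.665 and 0.688 in the ND rats and between 0.298 and 0.513 in the DM rats.

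The summed level of the 10 members was 190, 168 and 184 FPKM in the DM rats and 209, 218 and 197 FPKM in the ND rats. The 4 desaturases made up 42.3%, 35.3% and 42.3% of that sum in the DM rats, below the 48.3%, 49.1% and 44.9% in the ND rats. The summed elongases differed little, at 106 to 110 FPKM in DM and 108 to 111 FPKM in ND testes, and most of that sum was Elovl2. Fads1, Fads2 and Scd2 thus accounted for most of the lower sum, although these shares restate the levels above and were not tested.

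Of the other genes of fatty acid desaturation, elongation and use, 80 were listed in 9 groups by role, 78 had a row and 69 were tested. Among these 69, 5 were lower in DM testes at an unadjusted limma p below 0.05 and 0 were higher, none had an adjusted p below 0.05, and the median log2 fold change was -0.05. These shares may be read against the 4.99% and 2.47% of all genes given above. Fads6, a relative of the desaturases whose substrate is not settled, was 2.36 ± 0.407 FPKM in DM and 4.34 ± 1.55 FPKM in ND testes, a log2 fold change of -0.81 (SE 0.26, unadjusted p = 0.0153, adjusted p = 0.551). Fads3, which lies beside Fads2, had a log2 fold change of -0.0037 (unadjusted p = 0.978). Acsl5, an acyl-CoA synthetase that activates fatty acids, was 34.8 ± 1.09 against 46.9 ± 3.46 FPKM, a log2 fold change of -0.43 (SE 0.07, unadjusted p = 0.00046, adjusted p = 0.190). Acsbg1, an acyl-CoA synthetase known from brain and steroid-forming cells, was 45.7 ± 1.05 against 63.4 ± 7.76 FPKM, a log2 fold change of -0.46 (SE 0.09, unadjusted p = 0.0013, adjusted p = 0.282). Among 11 genes of ceramide synthesis, the ceramide synthases Cers1 (0.279 ± 0.101 against 1.03 ± 0.467 FPKM, unadjusted p = 0.0104) and Cers2 (2.64 ± 0.0418 against 3.38 ± 0.0561 FPKM, unadjusted p = 0.0159) were lower.

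The 6 other groups held no gene with an unadjusted limma p below 0.05 in the main fit. In these groups the alternative settings were read only for the genes named here. Of those, Mcat had one with median-ratio scaling (0.0423) or without DM rat 3 (0.0441). Hsd17b4 had one with no filter (0.0412) or without ND rat 3 (0.0368). The 6 partners of the elongation cycle tested had a median log2 fold change of -0.18, with Hacd3, the dehydratase of highest level, at -0.08 (limma unadjusted p = 0.264). The 6 genes of the cytochrome b5 system, which supplies electrons to desaturases, had a median of -0.05, and Cyb5r2 was at -0.09 (limma unadjusted p = 0.283). The 8 genes of fatty acid synthesis had a median of 0.11, with the malonyl transferase Mcat at 0.14 (limma unadjusted p = 0.0869). The 16 regulators of the SREBP, LXR, ChREBP and PPAR families, known to act on desaturase genes, had a median of -0.12, with Insig1, which retains SREBP in the endoplasmic reticulum, at -0.01 (limma unadjusted p = 0.905). The 6 genes of the peroxisomal steps of docosahexaenoate synthesis had a median of -0.14, with Hsd17b4 at -0.16 (limma unadjusted p = 0.0519). The 6 lysophospholipid acyltransferases, which place fatty acids in phospholipids, had a median of -0.05, with Lpcat3 at -0.06 (limma unadjusted p = 0.450).

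**Figure D4:**
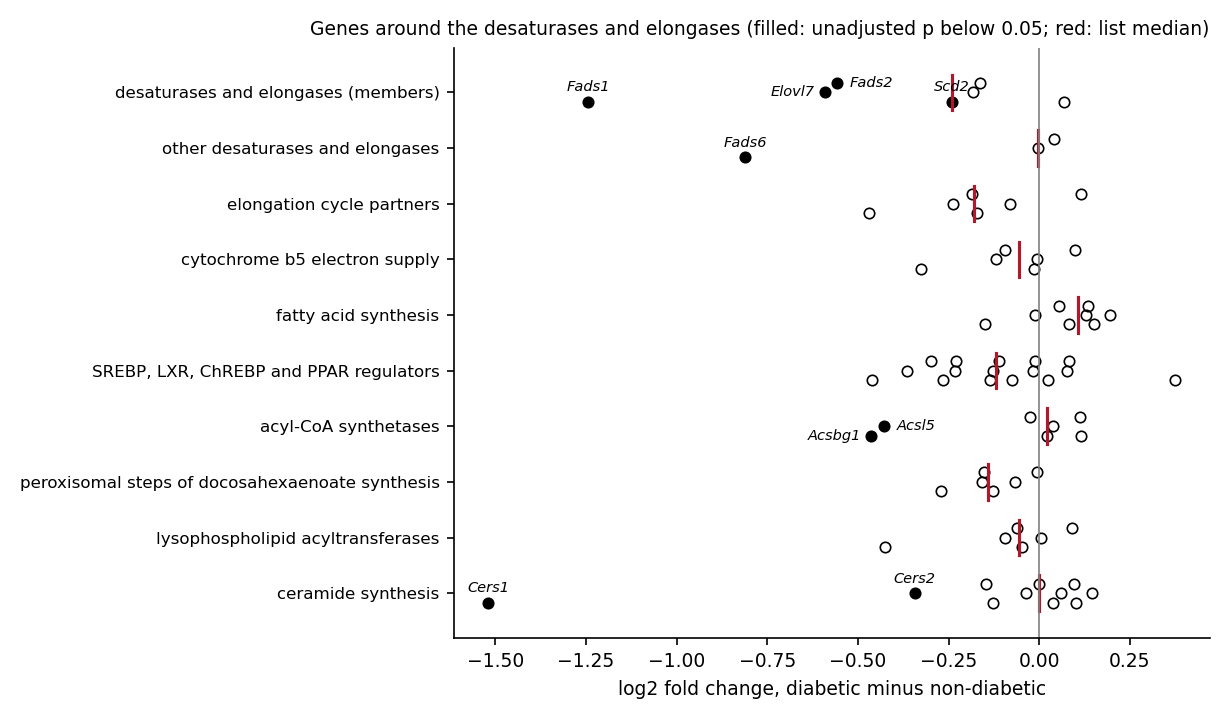
Log2 fold change (DM minus ND) of each tested gene, by group, for the members and the 9 other groups; filled points have an unadjusted limma p below 0.05 and are named, and red bars are group medians. All named points lie below 0, and the medians of the 9 other groups lie between -0.18 and 0.11.

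The tissue was checked against its markers. Spermatocyte, round and elongating spermatid markers ranged from 4.87 FPKM (Dmc1, at the 51.6 percentile by level) to 3682 FPKM (Prm1). None of the 8, 7 and 7 tested in these lists differed at an unadjusted p below 0.05 (summed levels 103.5%, 98.0% and 100.03% of ND). Of the Sertoli cell markers, 1 of 8 was lower (Inha), with a sum of 104.6% of ND. Of the spermatogonial markers tested, 1 was higher (Uchl1) and 1 lower (Kit) of 7. Peritubular (5 tested), endothelial (3 tested) and red cell (3 tested) markers had no gene below 0.05. Epididymal markers were all too low to test, with sums of 0.413 FPKM at most. Adipocyte markers, of which 3 could be tested and 1 was lower (Cfd), summed to 6.27 to 8.45 FPKM in DM and 8.72 to 11.1 FPKM in ND testes, and the extraction text in the labels also speaks of adipose material. Macrophage markers had 3 of 6 lower (Cd68, Csf1r and C1qa) with a sum of 87.4% of ND.

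Leydig cell markers were lower in the DM testes. All 6 tested markers (Cyp17a1, Cyp11a1, Star, Insl3, Lhcgr and Hsd17b3) were lower at an unadjusted p below 0.05, and their median log2 fold change was -1.25. Only Cyp17a1 among them had a limma adjusted p below 0.05 (0.0415), and that call was lost with no filter (0.0788), without the trend (0.0909), with the replicate block (0.186) and without DM rat 1 (0.122), DM rat 2 (0.125), DM rat 3 (0.107) or ND rat 3 (0.147), over a range of 0.00511 to 0.186. Their summed level was 41.3, 27.3 and 57.3 FPKM in DM rats 1 to 3 and 104, 117 and 84.5 FPKM in ND rats 1 to 3, or 41.2% of ND. DM rat 2, the lowest rat for Fads1, Fads2 and Scd2, was also the lowest for Star, Cyp11a1, Hsd17b3 and, by a small margin, Cyp17a1, but not for Insl3 or Lhcgr. Of the other members tested, Elovl7 was lowest in DM rat 1, Elovl1 and Elovl5 in DM rat 3, and Elovl2 in ND rat 1. Relative to the ND mean, Fads1 was 55.6%, 22.1% and 58.6% in DM rats 1 to 3. Fads2 was 73.3%, 50.1% and 83.9%, Scd2 93.6%, 77.5% and 82.9%, and Elovl7 50.6%, 69.5% and 71.6%. Among the markers, Star, the cholesterol carrier of steroid synthesis, was 47.8%, 22.0% and 65.3%. Cyp11a1, the first enzyme of that synthesis, was 46.5%, 27.1% and 65.4%. Hsd17b3, which forms testosterone, was 39.0%, 18.0% and 77.7%. The other markers did not follow this pattern over the DM rats, with Lhcgr, the receptor of luteinizing hormone, at 49.2%, 49.1% and 48.5%, Cyp17a1 at 33.2%, 30.6% and 33.4%, and the peptide hormone gene Insl3 at 19.3%, 23.1% and 70.1%. In testis as a whole, fewer cells of a type and less RNA per cell cannot be told apart, and the part of Leydig, macrophage or adipose cells in the member levels was not tested.

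**Figure D5:**
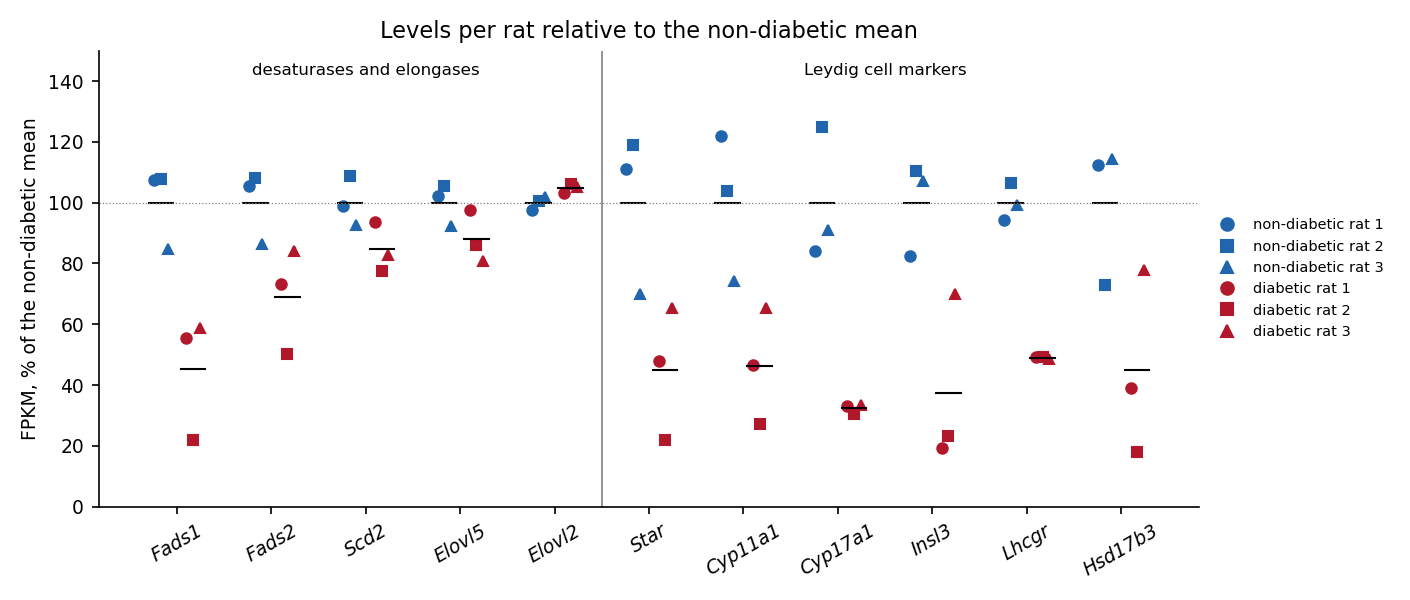
FPKM of 5 members and of 6 Leydig cell markers in each rat as a percent of the ND mean of that gene (circles, squares and triangles are rats 1, 2 and 3; ND blue, DM red; short lines are group means). DM rat 2 is at 22.1% for Fads1 and 22.0% for Star, and Elovl2 stays near the ND mean in all rats.

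The columns of the table were of like size, with sums of 453304 to 478211 FPKM, and the relative depth estimated from steps between low values was 0.893 to 1.09 of the mean. The depth in reads is not known. Correlations of log2 values were 0.958 to 0.965 between rats of a group and 0.957 to 0.966 between rats of different groups, so that the groups did not stand apart over all genes.

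The neighbours of Fads1 and Fads2 on chromosome 1, named after their values were seen, had small log2 fold changes, of 0.15 for Fen1, -0.05 for Myrf, -0.06 for Rab3il1 and -0.11 for Best1. Beside Scd2, Pkd2l1 was at -1.27 (limma unadjusted p = 0.00119, adjusted p = 0.279), Sec31b at -0.88 (unadjusted p = 0.0295), Wnt8b at -0.10, Bloc1s2 at -0.15 and Cwf19l1 at 0.04. The 3 named genes whose log2 levels over the 6 rats were most like those of Elovl2 among the 20338 tested were Mir1956 (Pearson r = 0.994), Mcrip2 (r = 0.994) and LOC304239 (r = 0.990), over 6 points that include both groups.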

How the data were processed

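Total RNA from testis was sequenced in 3 DM and 3 ND rats. The deposited values are FPKM per gene, made by the authors from aligned reads. The labels name BWA, STAR and StringTie without versions, and the genome build is not given in the sources used here. Since no counts were used here, the count test of the study could not be run. FPKM were taken as log2(FPKM + 0.1), the 20338 of 35291 genes averaging 0.5 FPKM or more were kept, and groups were compared with limma 3.58.1 in R 4.3.3 (lmFit, eBayes with trend), with Benjamini-Hochberg adjustment over all genes tested and no covariate. Single values and the 3 ratios were compared with the exact two-sided permutation test (scipy 1.17.1). The fits were tested on simulated data. Members and lists were chosen with earlier results of these data known. All members are named. From each other list, genes with an unadjusted p below 0.05 (at most the 3 smallest) or otherwise the gene of highest level are named, and from marker lists the gene of highest level and any with an adjusted p below 0.05. Alternatives covered pseudocounts of 0.01 and 1, no filter and a filter of 1 FPKM, median-ratio scaling, TPM, robust eBayes, eBayes with no trend, a replicate block, protein-coding genes alone, symbols summed, and each rat left out in turn. Marker genes Hsd3b1, Pecam1 and Hba-a1 and the pathway genes Acaa1a and Scp2 had no row by symbol.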

Additional observations from a re-analysis of the deposited data

How the results depend on the processing

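The 4 members with an unadjusted p below 0.05 became 2 without DM rat 2 or 3 and 1 without ND rat 1 or 2, and leaving out each rat in turn gave 1 to 4. Of all genes tested, 5.57% without DM rat 2 and 7.79% without DM rat 3 had such a p in either direction. Without ND rat 1 or 2 these shares were 7.09% and 5.63%. No filter gave 6 of 10, adding Scd and also Elovl6, which was listed at 0 in 4 rats and whose values there may not be estimates. With no filter, 6.64% of all genes had an unadjusted p below 0.05 in either direction. Elovl6 would then also pass the criterion of the study. Fads1 kept its direction and an unadjusted p below 0.05 in 17 of 17 alternatives, Fads2 in 15, Scd2 in 11 and Elovl7 in 9, and no adjusted p of a member was below 0.207. The 253 genes past the criterion of the study became 91 with a pseudocount of 1, 621 with no filter and 85 among protein-coding genes, and 246 to 335 with a rat left out. The 7 genes with an adjusted p below 0.05 became 3 with no filter, 12 without trend, 36 among protein-coding genes and 15 with symbols summed, and 0 to 14 with a rat left out. With the replicate block, 4 genes had an adjusted p below 0.05 and 4 members (Elovl5, Fads1, Fads2 and Scd2) an unadjusted p below 0.05. The share of all genes at that unadjusted p was 8.12% with the block. The correlations of deviations of same-numbered rats were 0.106, 0.0153 and 0.0979, against -0.126 to 0.0318 for rats of unlike number. These values are small and do not settle whether the numbers pair the rats. Some values near 0 changed sign. Insig1 became 0.018 with median-ratio scaling and ranged from -0.080 to 0.051 with a rat left out, and Tssk1b became 0.019 with that scaling and ranged from -0.057 to 0.063. With a rat left out, Elovl1 ranged from -0.27 to 0.023, Clu from -0.0082 to 0.18, Sycp3 from -0.066 to 0.078 and Mrc1 from -0.16 to 0.019. The causes were not tested. FPKM carry no read counts, so the counting error behind low members such as Scd and Elovl6 is not known.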

Other observations

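The marker genes of highest level in each list showed the following log2 fold changes (DM minus ND): Clu of Sertoli cells 0.10, Uchl1 of spermatogonia 0.34 (limma unadjusted p = 0.00805), Sycp3 of spermatocytes 0.01, Tssk1b of round spermatids -0.01, Prm1 of elongating spermatids 0.12, Acta2 of smooth muscle -0.16, Mrc1 of macrophages -0.06, Tek of endothelium -0.24 and Adipoq of adipocytes -0.32. With ND rat 3 left out, Prm1 was at 0.22 (limma unadjusted p = 0.0298) and Acta2 at -0.30 (limma unadjusted p = 0.00730), and with ND rat 1 left out they were at 0.056 and -0.055. Star of Leydig cells was at -1.24 (unadjusted p = 0.0152, adjusted p = 0.551), at -0.80 without DM rat 2, and had an unadjusted p of 0.0514 without ND rat 2. Cyp17a1, which makes androgen precursors, was at -1.60 with an adjusted p of 0.0415 and was the one marker in these lists with an adjusted p below 0.05. Over the alternatives that value ranged from 0.00511 to 0.186, and it was above 0.05 in 7 of 17. The 2 rows of the globin gene Hba-a2 were at -0.23 and -0.04.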
